A study of Arabidopsis thaliana with 6 samples.

Results

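Cyclins, cyclin-dependent kinases (CDKs) and CDK inhibitors were examined in the mature stem of Arabidopsis thaliana, together with KN, the syntaxin of the dividing plant cell's new wall. The genes were taken by locus identifier from a list of 10 A-type cyclins, 10 B-type cyclins, 10 D-type cyclins, 5 CDKs, 7 inhibitors of the KRP family and KN. All 43 loci were present among the 34484 identifiers of the deposited table. The list was drawn up from gene family membership, with earlier results of these data known. Of the 43 genes, 34 reached a mean of 1 FPKM (fragments per kilobase of transcript, scaled to the library's total) over all libraries and were tested, and 9 lay under that filter.

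RNA was sequenced from main stems labelled mature and 42 days after flowering, taken from greenhouse plants at 20 °C under a cycle of 16 h light and 8 h dark. The study set 3 wild type libraries against 3 libraries of a mutant in γVPE, a vacuolar protease with roles in protein maturation and cell death. The kind of γVPE allele and the accession of the plants are not given in the labels. In the table, WT columns fit the wild type titles by name, and WT_V columns were taken as the mutant by elimination, so both sets go by their column names here. The titles number 3 libraries per genotype while the design text states that there were no replicates, and nothing says that separate plants were used. The p-values below thus cover the spread among these libraries alone, and that spread may be technical.

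A cyclin binds a CDK and makes it active, and different cyclins do so at different stages of the cell cycle. In plants, D-type cyclins with CDKA act at entry from G1 by phosphorylating the retinoblastoma protein. A-type cyclins act from the start of DNA replication to the entry into mitosis, and B-type cyclins with the plant-specific B-type CDKs act at entry into and passage through mitosis. KRP proteins bind cyclin and CDK complexes and inhibit them, and KN then mediates vesicle fusion at the cell plate. In a stem that has stopped elongating, cell division is known mainly from the cambium, the cell layer that produces xylem and phloem.

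The transcript of the mutated gene went against the labels. GAMMA-VPE (AT4G32940) measured 328.1, 328.1 and 325.4 FPKM in WT_V and 163.1, 164.4 and 162.7 FPKM in WT. The level was 2.0 times as high in WT_V, with no overlap of the sets, and the exact two-sided permutation p of 0.1 is the smallest that 3 against 3 libraries allow. Whether a mutation lies outside the counted part of the gene is not given, so the directions below are those between the libraries labelled WT_V and WT. The scaling totals that the step size of each column implies were 47386000 to 51013000 in WT_V and 40308000 to 46467000 in WT, so that 1 count in a 1 kb transcript was worth 0.0196 to 0.0248 FPKM. All 10 fibre and xylem markers listed for the mature stem were present in both sets and higher in WT_V, with summed levels of 148.9 to 154.9 FPKM against 54.3 to 56.7. All 10 seed markers were higher in WT_V, with sums of 16140 to 16410 FPKM against 0 to 0.0353, and 9 of them were listed at 0 in every WT library. All 7 flower markers were also higher in WT_V, with sums of 124.9 to 130.5 against 29.4 to 32.5. In all of these markers every WT_V value lay above every WT value, as in 53.1% of all genes tested. All 10 seed markers, 1 flower marker and 1 mature stem marker had a WT mean under 1 FPKM. They passed the filter only through WT_V, which fixes their direction as deposited. The part of these tissues in the results below was not tested, and in bulk RNA more dividing cells and more RNA per dividing cell cannot be told apart.

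Genes that act at G2 and mitosis often carry the letters AACGG, the core of the element bound by three-repeat MYB (MYB3R) factors, and their upstream sequences are shown here to let these letters be seen beside the levels of the same genes. The windows are the 250 bases before the annotated gene start in the TAIR10.1 assembly, read from the gene's own strand, and none of the 5 printed windows overlaps another gene. Capitals mark AACGG or, on the opposite strand, CCGTT. The lines give KN (AT1G08560, chr1:2711001-2711250, minus strand), CYCB1;1 (AT4G37490, chr4:17624309-17624558, minus strand), CYCB1;2 (AT5G06150, chr5:1861704-1861953, minus strand), CYCB2;3 (AT1G20610, chr1:7137829-7138078, minus strand) and, as an inhibitor with the same letters, KRP1 (AT2G23430, chr2:9978091-9978340, minus strand).
KN: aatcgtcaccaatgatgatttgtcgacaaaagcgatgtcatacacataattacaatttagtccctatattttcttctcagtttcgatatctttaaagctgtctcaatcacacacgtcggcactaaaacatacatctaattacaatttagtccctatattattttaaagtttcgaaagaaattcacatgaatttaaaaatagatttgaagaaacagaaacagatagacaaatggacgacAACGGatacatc
CYCB1;1: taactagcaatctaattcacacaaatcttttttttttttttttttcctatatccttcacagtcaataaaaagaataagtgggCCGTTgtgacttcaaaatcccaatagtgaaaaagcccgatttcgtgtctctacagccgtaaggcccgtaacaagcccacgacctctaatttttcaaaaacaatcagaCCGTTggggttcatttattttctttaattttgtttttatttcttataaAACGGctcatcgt
CYCB1;2: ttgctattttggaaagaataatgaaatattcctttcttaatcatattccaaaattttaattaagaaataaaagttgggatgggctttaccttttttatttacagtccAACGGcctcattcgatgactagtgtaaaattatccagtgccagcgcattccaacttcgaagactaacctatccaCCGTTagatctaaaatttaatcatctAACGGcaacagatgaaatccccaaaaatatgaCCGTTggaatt
CYCB2;3: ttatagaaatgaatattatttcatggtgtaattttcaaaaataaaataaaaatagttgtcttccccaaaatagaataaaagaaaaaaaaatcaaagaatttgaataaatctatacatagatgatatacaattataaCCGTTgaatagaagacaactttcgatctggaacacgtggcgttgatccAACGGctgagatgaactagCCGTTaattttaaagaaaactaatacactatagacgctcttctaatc
KRP1: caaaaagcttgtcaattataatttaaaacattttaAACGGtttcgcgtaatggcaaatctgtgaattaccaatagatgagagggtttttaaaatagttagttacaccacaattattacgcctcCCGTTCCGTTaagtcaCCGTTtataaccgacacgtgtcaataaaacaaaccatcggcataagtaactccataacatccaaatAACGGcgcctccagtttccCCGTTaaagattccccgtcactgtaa

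Searched on both strands, AACGG was present at least once in 17 of the 43 windows (39.53%) and in 5645 of 27443 windows of nuclear protein-coding genes (20.57%). Windows with 2 or more matches numbered 13 of 43 (30.23%), against 994 of 27443 (3.62%). The letters were present in 6 of 10 B-type cyclin windows, each time at least 2 times, and in 4 of 10 A-type cyclin windows, 4 of 7 KRP windows, 1 of 10 D-type cyclin windows and 1 of 5 CDK windows. The window of KN held 1 match and that of KRP1 held 6. The E2F site TTTCCCGC was found in 0 of 43 windows and in 0.62% of all, and the variant TTTGGCGC was found in 1 member, CYCD3;3 (AT3G50070), and in 0.36% of all windows. These matches describe letters and not bound sites.

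The table as a whole leaned towards WT_V, and the members have to be read against it. With limma on log2(FPKM + 1) and Benjamini-Hochberg adjustment over all 19144 genes tested, 76.0% of genes passed an adjusted p of 0.05, 51.9% as higher in WT_V and 24.1% as lower. Of the 34 tested members, 26 were higher in WT_V, 2 were lower and 6 did not pass. The median log2 difference of the tested members was 0.60, with a range of -0.33 to 2.13, and that of all genes tested was 0.167. Most members had low levels, and among genes with a mean of 1 to 10 FPKM the share called higher was 61.3% and the median was 0.352. For 3 of the tested members, CYCA2;4, CYCD4;1 and CDKB1;2, the WT mean was under 1 FPKM. These 3 genes passed the filter only through WT_V, which fixes their direction as deposited. Scaling by the median of ratios moved the all-gene median to -0.012, and quantile normalization moved it to -0.0901. With the former 21 members were called higher and 4 lower, against 35.8% and 37.7% of all genes. With the latter 14 were called higher and 9 lower, against 29.8% and 44.9%.

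**Figure D1:**
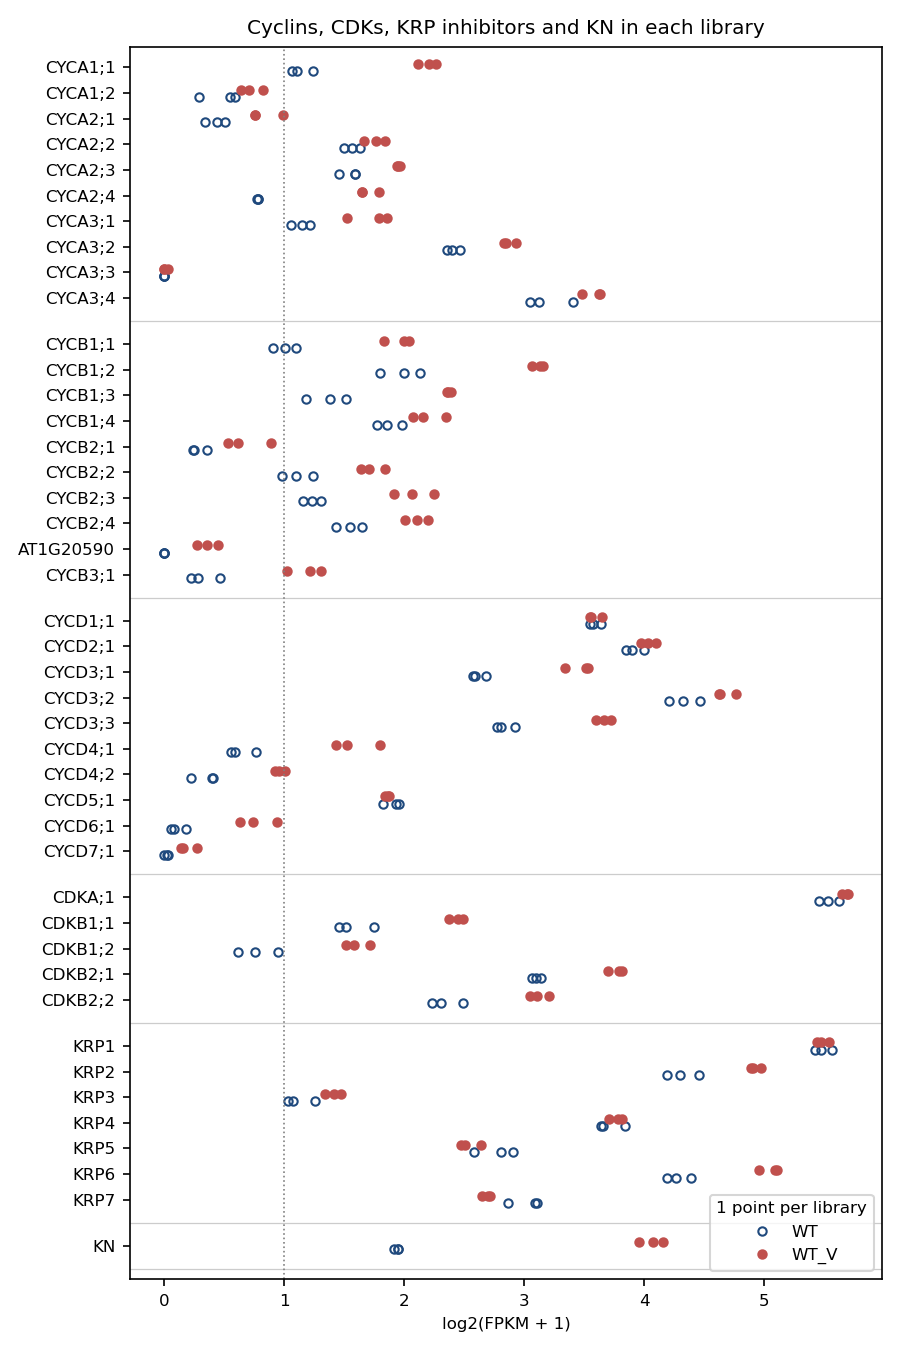
Level of each of the 43 genes in each library as log2(FPKM + 1), with 1 point per library, open for WT and filled for WT_V, and a dotted line at 1 FPKM. In 35 of the 43 genes the 3 WT_V points lie above the 3 WT points, and KN shows the widest gap.

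In 35 of the 43 genes every WT_V value lay above every WT value, and in 1, KRP7, every value lay below. Among all tested genes these shares were 53.1% and 24.4%, and among the 34 tested members the counts were 27 and 1.

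The D-type cyclins, which open the cycle at G1, were split between genes that were higher in WT_V and genes whose difference did not pass. Of 7 tested, 4 were higher, 0 were lower and 3 did not pass, with a median log2 difference of 0.34. That count lay near the shares called higher of all genes tested, 51.9%, and of genes with a mean of 1 to 10 FPKM, 61.3% (median 0.352). CYCD4;1, 1 of the 4, passed the filter only through WT_V, which fixes its direction as deposited. Summed over all 10 genes the level was 79.2 ± 3.31 FPKM (SD, n = 3) in WT_V and 59.3 ± 2.57 FPKM in WT, a ratio of 1.34. The CYCD3 genes, which prolong the dividing phase of cells in leaves and cambium, made up the greater part of what differed. CYCD3;1 (AT4G34160) measured 9.15, 10.6 and 10.4 FPKM in WT_V and 5.03, 5.41 and 4.97 in WT. CYCD3;3, named above for its E2F letters, measured 11.1, 11.7 and 12.3 FPKM against 5.98, 6.595 and 5.83. Both had sets that stood well apart, with log2 differences of 0.85 ± 0.0704 (adjusted p = 1.08e-06) and 0.83 ± 0.0642 (adjusted p = 5.98e-07). CYCD3;1 overlaps AT4G34150 on the same strand, which had means of 47.8 FPKM in WT_V and 35.1 in WT. That neighbour was also called higher, at 0.44 (adjusted p = 1.35e-05), and how reads in the shared part were counted is not given. CYCD3;2 (AT5G67260) was the most abundant D-type cyclin, with 23.7, 23.9 and 26.2 FPKM against 21.0, 17.5 and 19.1. Its sets also did not overlap, but the difference was smaller, at 0.34 ± 0.0648 (adjusted p = 0.00065), and was 0.15 with an adjusted p past 0.05 after median-of-ratios scaling.

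Of the other tested D-type cyclins, 1 was called higher and 3 did not pass. CYCD4;1 (AT5G65420), a partner of CDKs in early root and stomatal divisions, measured 1.87, 1.70 and 2.49 FPKM in WT_V and 0.701, 0.475 and 0.504 in WT. Every WT_V library was above every WT library, and the log2 difference was 0.95 ± 0.121 (adjusted p = 3.46e-05), although quantile normalization ended that call. CYCD1;1 (AT1G70210), known from the onset of division in germinating seeds, measured 10.8, 11.6 and 10.7 FPKM against 11.5, 10.9 and 10.7. CYCD2;1 (AT2G22490), a cyclin that links sugar supply to G1, measured 14.7, 16.2 and 15.4 against 15.0, 13.9 and 13.4. CYCD5;1 (AT4G37630), a regulator of endoreduplication, measured 2.64, 2.59 and 2.66 against 2.82, 2.54 and 2.90. In these 3 genes the sets overlapped, and the log2 differences of 0.00 ± 0.0544, 0.12 ± 0.0553 and -0.05 ± 0.0803 did not pass. With either scaling alternative CYCD1;1 was called lower, and with quantile normalization CYCD5;1 was too. CYCD2;1 was called higher when WT_V library 1 or WT library 1 was left out, with adjusted p-values of 0.0496 and 0.0244. Its sign turned negative without a call after median-of-ratios scaling, at -0.0664 (adjusted p = 0.301), and quantile normalization, at -0.102 (adjusted p = 0.121).

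The A3-type cyclins, which act around the start of S phase, were moderately higher in WT_V. All 3 that were tested were called higher, with a median of 0.46, and their sum with the fourth gene was 19.6 ± 0.414 FPKM against 13.7 ± 1.19 (SD, n = 3). Beside this, 51.9% of all genes tested were called higher, and 61.3% of those with a mean of 1 to 10 FPKM. CYCA3;4 (AT1G47230) was the most abundant A-type cyclin and measured 11.3, 10.2 and 11.4 FPKM in WT_V against 9.64, 7.29 and 7.70 in WT. CYCA3;2 (AT1G47210) measured 6.11, 6.62 and 6.20 against 4.27, 4.12 and 4.53. CYCA3;1 (AT5G43080) measured 2.63, 2.47 and 1.88 against 1.08, 1.22 and 1.32. In none of them did the sets overlap, and the log2 differences were 0.38 ± 0.0903, 0.46 ± 0.0684 and 0.59 ± 0.11, with adjusted p-values of 0.00267, 0.000107 and 0.000592. After quantile normalization none of the 3 was called, and the last 2 took a negative sign. CYCA3;4 also lost its call after median-of-ratios scaling, at 0.204 (adjusted p = 0.063). The first 2 lie in a row on chromosome 1 with CYCA3;3, and how reads matching more than 1 of such copies were counted is not given. On the opposite strand CYCA3;4 overlaps AT1G47240, which was also called higher, at 0.52 (adjusted p = 3.91e-06).

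The A1- and A2-type cyclins, which act from S phase to the entry into mitosis, held the greatest differences of the A class. CYCA1;1 (AT1G44110) measured 3.82, 3.62 and 3.345 FPKM in WT_V and 1.09, 1.16 and 1.37 in WT. The level was 2.99 times as high, with a log2 difference of 1.06 ± 0.0906 (adjusted p = 1.36e-06). CYCA2;4 (AT1G80370), of the subclass that restrains endoreduplication and is active in vascular tissue, measured 2.45, 2.13 and 2.14 against 0.719, 0.706 and 0.720. It was 3.13 times as high (log2 difference 0.92 ± 0.0929, adjusted p = 5.53e-06), a call that quantile normalization ended. CYCA2;3 (AT1G15570) measured 2.86, 2.84 and 2.90 against 1.74, 2.02 and 2.01, which was 1.49 times as high, and was called lower after quantile normalization. CYCA2;2 (AT5G11300) measured 2.58, 2.17 and 2.40 against 2.11, 1.83 and 1.96. Its WT_V values all lay above its WT values, but by little, and the difference of 0.19 ± 0.0895 did not pass (adjusted p = 0.0747), and the call depended on the setting. It was called higher without WT_V library 2 (adjusted p = 0.0488) and without the trend (adjusted p = 0.0239), and lower after quantile normalization, at -0.493 (adjusted p = 0.000577). Over the whole A class, 6 of 7 tested genes were higher and the median was 0.46, which turned to -0.015 after quantile normalization. The shares called higher were 51.9% of all genes tested and 61.3% of those with a mean of 1 to 10 FPKM. CYCA2;4, 1 of the 6, had a WT mean of 0.715 FPKM. It passed the filter only through WT_V, which fixes its direction as deposited.

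**Figure D2:**
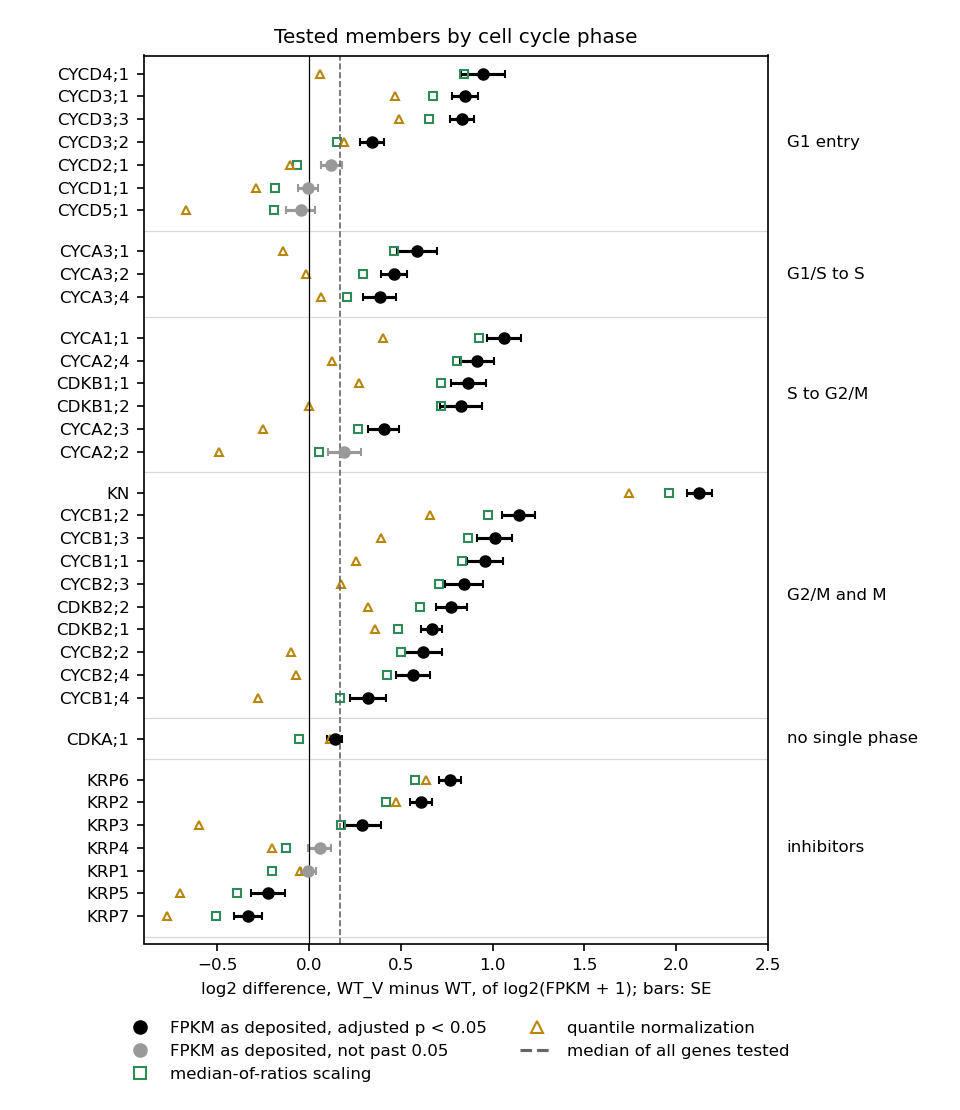
Log2 difference (WT_V minus WT, of log2(FPKM + 1)) of the 34 tested members by cell cycle phase, with SE bars, beside the values after median-of-ratios scaling (squares) and quantile normalization (triangles), and the median of all genes tested as a dashed line. KN, at 2.13, stands furthest to the right under all 3, while 10 members change sign under quantile normalization and 3 under median-of-ratios scaling.

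CDKA;1 (AT3G48750), the PSTAIRE-type kinase that works with cyclins throughout the cycle, was the most abundant member and differed least among the CDKs. It measured 50.9, 50.5 and 49.3 FPKM in WT_V and 48.4, 45.3 and 43.1 in WT. The ratio was 1.10 and the log2 difference 0.14 ± 0.0409 (adjusted p = 0.0102), which is below the median of all genes tested and turned to -0.0581 (adjusted p = 0.219) after median-of-ratios scaling. The 4 B-type CDKs, found only in plants and present from S phase to mitosis, differed more. CDKB1;1 (AT3G54180), which with A2-type cyclins promotes division over endoreduplication, measured 4.64, 4.45 and 4.19 FPKM against 1.75, 2.36 and 1.86. CDKB1;2 (AT2G38620) measured 2.28, 1.86 and 2.0 against 0.529, 0.935 and 0.694. Both were more than doubled in mean level, with ratios of 2.23 and 2.84, and with log2 differences of 0.87 ± 0.0945 (adjusted p = 9.85e-06) and 0.83 ± 0.114 (adjusted p = 6.17e-05).

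The B2-type CDKs, whose protein peaks at mitosis, followed. CDKB2;1 (AT1G76540) measured 12.8, 13.1 and 11.98 FPKM in WT_V and 7.80, 7.57 and 7.37 in WT. CDKB2;2 (AT1G20930) measured 8.25, 7.26 and 7.61 against 3.95, 3.71 and 4.62. The sets were separate in both, with ratios of 1.67 and 1.88 and log2 differences of 0.67 ± 0.0561 (adjusted p = 1.2e-06) and 0.78 ± 0.0827 (adjusted p = 8.32e-06). All 5 CDKs were called higher as deposited, with a median of 0.78, and their sum was 77.1 ± 1.94 FPKM against 59.98 ± 2.41 (SD, n = 3). The shares called higher were 51.9% of all genes tested and 61.3% of those with a mean of 1 to 10 FPKM. CDKB1;2, 1 of the 5, had a WT mean of 0.719 FPKM. It passed the filter only through WT_V, which fixes its direction as deposited. After quantile normalization 4 of the 5 stayed called higher and CDKB1;2 did not. On opposite strands, CDKB1;1 overlaps AT3G54190, CDKB1;2 overlaps AT2G38630 and CDKB2;1 overlaps AT1G76530, which had log2 differences of 0.15, 0.00 and 0.50, and the strand setting of the counting is not given.

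The B-type cyclins, which drive entry into mitosis, were all higher in WT_V as deposited. All 7 tested genes were called higher, with a median log2 difference of 0.84, and in all 10 genes of the class the sets did not overlap. Called higher were 51.9% of all genes tested and 61.3% of those with a mean of 1 to 10 FPKM. Every WT_V value lay above every WT value in 53.1% of all genes tested. The 10 genes include 3 under the filter, which the 53.1% does not cover. The summed level was 29.4 ± 1.01 FPKM (SD, n = 3) in WT_V and 13.1 ± 0.537 FPKM in WT, a ratio of 2.24. CYCB1;2, the most abundant of them in WT_V, measured 7.95, 7.75 and 7.35 FPKM against 2.49, 3.00 and 3.37. Its log2 difference of 1.14 ± 0.0893 (adjusted p = 6.68e-07) was the greatest of the class. CYCB1;3 (AT3G11520) measured 4.12, 4.23 and 4.16 against 1.86, 1.27 and 1.60, a log2 difference of 1.01 ± 0.0976. CYCB1;1, a widely used marker of cells at G2 and mitosis that is also induced by DNA damage, measured 3.11, 2.56 and 3.00 against 1.01, 0.871 and 1.14, a difference of 0.96 ± 0.0986. These 3 genes, with ratios of 2.60, 2.64 and 2.88, were called higher under every alternative that kept them above its filter.

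The remaining B-type cyclins were less secure. CYCB2;3 measured 3.74, 3.197 and 2.78 FPKM in WT_V and 1.345, 1.48 and 1.24 in WT, a ratio of 2.40. CYCB2;2 (AT4G35620) measured 2.26, 2.12 and 2.58 against 0.973, 1.15 and 1.36, a ratio of 2.0. CYCB2;4 (AT1G76310) measured 3.32, 3.02 and 3.61 against 2.13, 1.70 and 1.92, a ratio of 1.73. All 3 had adjusted p-values under 0.05, at 2.38e-05, 0.000247 and 0.000236, but none was called after quantile normalization, where the last 2 had a negative sign. CYCB1;4 (AT2G26760) differed least, with 3.46, 3.21 and 4.08 FPKM against 2.95, 2.63 and 2.42 and a log2 difference of 0.32 ± 0.0963 (adjusted p = 0.011). It did not pass after median-of-ratios scaling and was called lower after quantile normalization.

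On the scale of log2(FPKM + 1), KN had the greatest difference of the 34 tested members. It measured 14.6, 15.9 and 16.8 FPKM in WT_V and 2.77, 2.86 and 2.87 FPKM in WT. The lowest WT_V value was far above the highest WT value, the mean was 5.56 times as high, and the log2 difference was 2.13 ± 0.0673 (adjusted p = 4.02e-10). Of all tested genes, 3.73% had a greater difference. It was called higher under every alternative run, with 1.74 after quantile normalization. In counts recovered from the FPKM steps these levels were 994, 1122 and 1106 against 155, 184 and 163. KN overlaps AT1G08550 on the opposite strand, which was lower in WT_V, with a log2 difference of -0.52 (adjusted p = 1.3e-06), the other direction from KN.

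**Figure D3:**
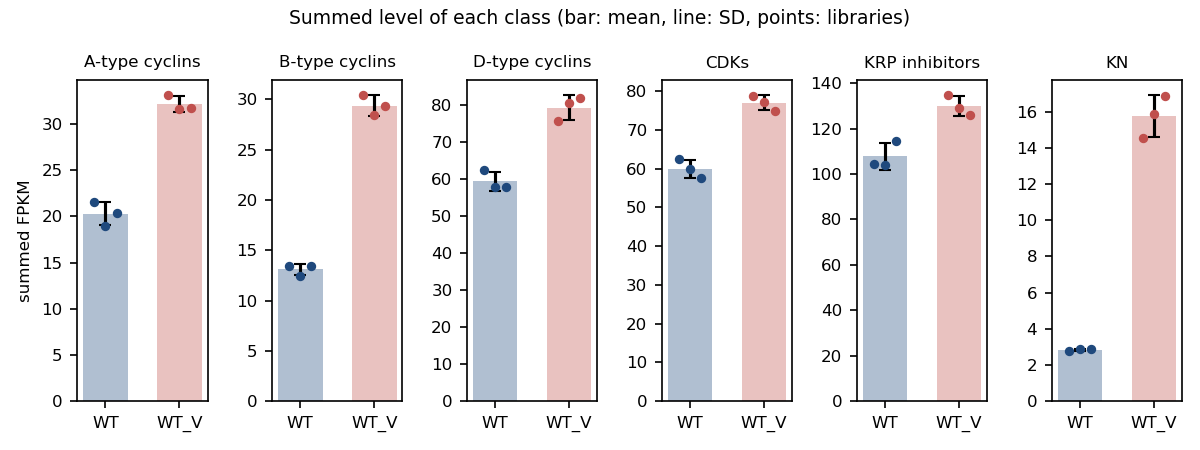
Summed FPKM, as deposited, of all genes of each class in each library (points), with the mean (bar) and SD (line) of 3 libraries, on axes that start at 0. KN and the B-type cyclins have the greatest ratios, 5.56 and 2.24, and the KRP inhibitors the smallest, 1.21.

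Taken by phase, the genes of G2 and mitosis (B-type cyclins, B2-type CDKs and KN) were all called higher, 10 of 10 tested, with a median of 0.81 and a summed level of 65.5 ± 0.757 FPKM against 27.6 ± 0.873 (SD, n = 3). The genes acting from S phase to mitosis (A1- and A2-type cyclins and B1-type CDKs) were called higher in 5 of 6, with a median of 0.85. The medians of the A3-type cyclins, at 0.46, and of the D-type cyclins, at 0.34, were lower. Of the genes acting from S phase to mitosis, CYCA2;4 and CDKB1;2 had WT means of 0.715 and 0.719 FPKM. These 2 passed the filter only through WT_V, which fixes their direction as deposited, and the median of 0.85 depends on them. The others, CYCA1;1, CDKB1;1, CYCA2;3 and CYCA2;2, were at 1.06, 0.87, 0.41 and 0.19. Among all genes tested 51.9% were called higher, and 61.3% of those with a mean of 1 to 10 FPKM. Whether the phases differ from each other was not tested. Quantile normalization changed the sign of 3 of the 10 genes of G2 and mitosis.

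The KRP inhibitors did not move in 1 direction. Of 7 tested, 3 were called higher, 2 lower and 2 not. Those counts lay near the shares of all genes tested, with 51.9% called higher and 24.1% lower. The KRP median of 0.06 lay below that of all genes tested and turned to -0.128 and -0.202 under the 2 scaling alternatives. KRP6 (AT3G19150), an inhibitor known from the male germ line, measured 33.5, 33.2 and 30.1 FPKM in WT_V and 17.3, 18.3 and 20.0 in WT. KRP2 (AT3G50630), which restrains lateral root initiation, measured 30.4, 28.7 and 29.1 against 17.3, 18.7 and 20.9. These 2 had sets well apart, ratios of 1.74 and 1.55, and log2 differences of 0.77 ± 0.0583 (adjusted p = 5.27e-07) and 0.61 ± 0.0613 (adjusted p = 5.11e-06), and stayed called higher under both scaling alternatives. KRP1, the most abundant inhibitor, measured 45.5, 43.5 and 42.5 FPKM against 43.6, 42.0 and 46.5. The KRP1 sets overlapped and the difference of 0.00 ± 0.0421 did not pass, but it was called lower after median-of-ratios scaling, at -0.201 (adjusted p = 0.00121). Its window printed above held the most AACGG matches of any member.

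Among the rarer inhibitors the differences were small. KRP7 (AT1G49620), which is removed with KRP6 in the male germ line, was the only member whose WT_V values all lay below its WT values, with 5.50, 5.29 and 5.56 FPKM against 7.53, 7.63 and 6.28. Its log2 difference was -0.33 ± 0.0777 (adjusted p = 0.00256). KRP5 (AT3G24810), linked to endoreduplication in root and hypocotyl, measured 5.23, 4.70 and 4.54 against 6.02, 4.98 and 6.49. The KRP5 sets overlapped, and its call as lower, at -0.23 ± 0.0923 (adjusted p = 0.0454), was lost when WT_V library 2 or 3 or WT library 1 or 3 was left out, with adjusted p-values of 0.109 to 0.165. KRP3 (AT5G48820) measured 1.53, 1.78 and 1.67 against 1.39, 1.11 and 1.04. Its call as higher, at 0.29 ± 0.101 (adjusted p = 0.0227), was lost when WT_V library 2 or 3 or WT library 2 or 3 was left out, with adjusted p-values of 0.0505 to 0.0795. It was also lost after median-of-ratios scaling, at 0.173 (adjusted p = 0.146), and turned to lower after quantile normalization. KRP4 (AT2G32710), which sets the size at which shoot meristem cells divide, measured 13.1, 12.1 and 12.8 against 11.5, 11.6 and 13.3, with overlapping sets and a difference of 0.06 ± 0.0636 that did not pass and was called lower after quantile normalization. It overlaps AT2G32720 on the opposite strand, which was 2.30 times as high in WT_V.

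The 9 genes under the filter had levels below 1.5 FPKM in every library. The highest was CYCB3;1 (AT1G16330), known from meiosis, with 1.32, 1.48 and 1.04 FPKM in WT_V and 0.381, 0.213 and 0.169 in WT, a ratio of 5.01. CYCD6;1 (AT4G03270), a cyclin of formative divisions in the root ground tissue, measured 0.548, 0.919 and 0.671 against 0.0592, 0.137 and 0.0388. Its ratio of 9.11 was above the 5.56 of KN, at levels under 1 FPKM in every library. CYCD4;2 (AT5G10440) measured 0.903, 1.01 and 0.939 against 0.171, 0.330 and 0.318. AT1G20590, listed among the B2-type cyclins, had 11, 15 and 8 recovered counts in WT_V and 0, 0 and 0 in WT. CYCA2;1 (AT5G25380), CYCB2;1 (AT2G17620), CYCD7;1 (AT5G02110), known from stomatal division, and the meiotic CYCA1;2 (AT1G77390) were also above in every WT_V library, with means of 0.792, 0.613, 0.143 and 0.654 FPKM against 0.348, 0.219, 0.0126 and 0.398. CYCA3;3 (AT1G47220) had 1 recovered count in 1 WT_V library and 0 in the other libraries. Without a filter 7 of the 9 were called higher and 0 lower, where 45.4% of all genes were called higher, and CYCA1;2 (adjusted p = 0.0539) and CYCA3;3 (adjusted p = 0.781) were not called.

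Other genes of the cycle were examined in 8 lists that hold none of the members. As among the members, some of these genes had a WT mean under 1 FPKM and passed the filter only through WT_V, which fixes the direction of their difference as deposited. They numbered 3 in G1/S control, 2 in S-phase synthesis, 1 among the G2/M factors, 3 among the spindle genes, 5 among the phragmoplast genes and 1 in the anaphase list. Of the genes named here, DEL3, ICU2, TIL1, MYB3R4, TPX2, MKK6, HIK, PAKRP1L and CDC27A were among them. The counts of each list stand beside 51.9% of all genes tested called higher and 24.1% called lower. Among genes with a mean of 1 to 10 FPKM the share called higher was 61.3%. In G1/S control and origin licensing 16 of 20 tested genes were higher in WT_V and 0 lower, with a median of 0.52. After quantile normalization 6 were higher and 7 lower, and at a minimum mean of 5 FPKM 2 were higher with a median of 0.134. The genes called higher as deposited included MCM4 (AT2G16440), MCM2 (AT1G44900) and MCM7 (AT4G02060), subunits of the replicative helicase, at 1.15, 0.98 and 0.98, and DEL3 (AT3G01330), an atypical E2F, at 1.04. The MCM4 levels were 4.26, 4.62 and 4.83 FPKM against 1.53, 1.51 and 1.46, with no overlap. In S-phase DNA synthesis 15 of 16 were higher and 1 lower, with a median of 0.43, and after quantile normalization 4 were higher and 3 lower. PCNA1 (AT1G07370), the sliding clamp, was at 1.18 and measured 7.18, 6.75 and 6.97 FPKM against 3.32, 1.92 and 2.42. The polymerase subunits ICU2 (AT5G67100) and TIL1 (AT1G08260) were at 0.86 and 0.77, PCNA2 (AT2G29570) was at 0.69, and POLD4 (AT1G09815), the small subunit of polymerase delta, was lower at -0.39. The medians of both lists turned negative after quantile normalization, to -0.0253 and -0.0226.

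Genes of later stages were mostly higher as deposited. All 5 tested G2/M transcription factors were higher, with a median of 0.57, among them MYB3R4 (AT5G11510) at 1.07, which measured 3.23, 2.92 and 2.96 FPKM against 1.02, 0.969 and 0.769. MYB3R3 (AT3G09370), MYB3R1 (AT4G32730) and MYB3R5 (AT5G02320) were at 0.67, 0.57 and 0.52. Of 16 mitotic kinase, kinetochore and spindle genes 12 were higher and 0 lower, with a median of 0.58. These became 11 higher and 2 lower after median-of-ratios scaling, and 6 higher and 5 lower with a median of -0.0439 after quantile normalization. The greatest there were TPX2 (AT1G03780), a spindle assembly factor, and the Aurora kinase AUR2 (AT2G25880), at 1.11 and 1.08, followed by CDC20.2 (AT4G33260) and CDC20.1 (AT4G33270), activators of the anaphase-promoting complex, at 1.01 and 0.97. Of 14 phragmoplast and cell plate genes, which act beside KN, 12 were higher and 0 lower, with a median of 0.71. With a mean of 1 FPKM required in each set, 7 were higher and the median was 0.413, and after quantile normalization 7 were higher and 3 lower. MKK6 (AT5G56580) and the kinesin HIK (AT1G18370), which belong to 1 signalling cascade at the phragmoplast, were at 1.49 and 1.18, the kinesin PAKRP1L (AT3G23670) at 1.14 and the cell plate glycan synthase CSLD5 (AT1G02730) at 1.07. HIK measured 2.83, 3.16 and 3.09 FPKM against 0.836, 0.880 and 0.618. None of the phragmoplast genes called higher matched KN in log2 difference, a scale that understates the change of low genes. By ratio of mean FPKM, MKK6 was at 5.62 and PAKRP1L at 5.47, beside 5.56 for KN.

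**Figure D4:**
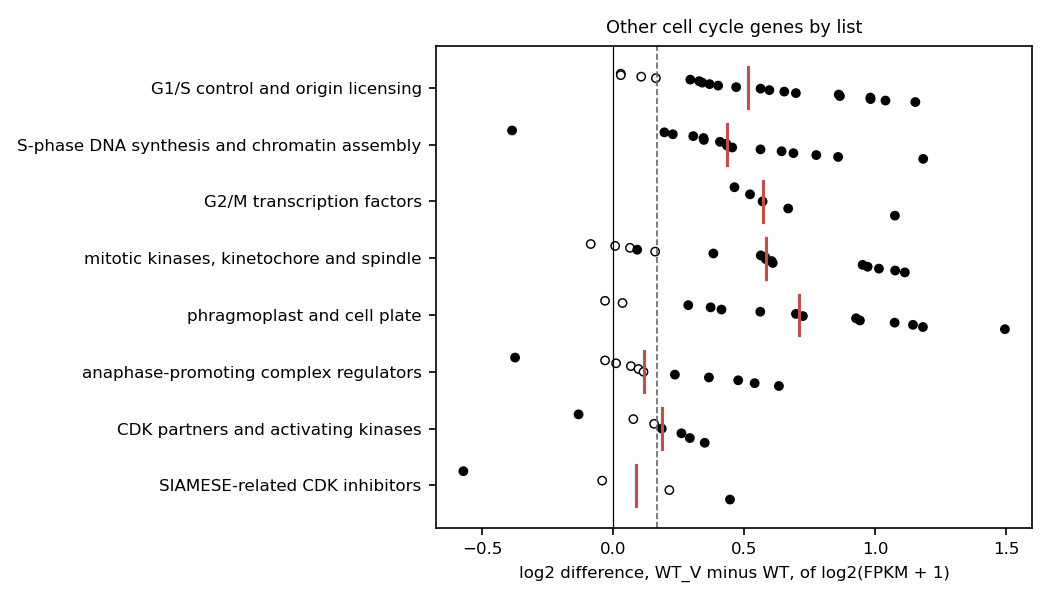
Log2 difference (WT_V minus WT, of log2(FPKM + 1)) of the tested genes of 8 lists of other cell cycle genes, with filled points for an adjusted p under 0.05, open points for the others, a red line at each list's median and a dashed line at the median of all genes tested, 0.167. The phragmoplast list has a median of 0.71, which was 0.413 where a mean of 1 FPKM was required in each set, and the lists of anaphase-promoting complex regulators and SIAMESE-related inhibitors lie below the dashed line. Quantile normalization turned 6 of the 8 medians negative.

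The regulators that act on CDKs or on cyclin stability lay near the median of all genes. Their counts stand beside 51.9% of all genes tested called higher and 24.1% called lower. Of 11 anaphase-promoting complex genes, which mark cyclins for breakdown, 5 were higher and 1 lower, with a median of 0.12, and after quantile normalization 0 were higher and 6 lower. CDC27A (AT3G16320), APC1 (AT5G05560) and CCS52A1 (AT4G22910) were higher at 0.63, 0.54 and 0.48, and SAMBA (AT1G32310) was lower at -0.38. Of 7 CDK partners and activating kinases 4 were higher and 1 lower, with a median of 0.185. These became 1 and 1 after median-of-ratios scaling, and 0 higher and 3 lower after quantile normalization. The activating kinases CDKD1;3 (AT1G18040), CDKF;1 (AT4G28980) and CDKD1;2 (AT1G66750) were at 0.35, 0.29 and 0.19. The cyclin CYCH;1 (AT5G27620) was at 0.26, while the CDK subunit CKS1 (AT2G27960) was lower at -0.13. Of the SIAMESE-related inhibitors, a plant family distinct from the KRPs, 4 of 14 listed symbols were tested. SIM (AT5G04470) was higher at 0.45, with 7.99, 7.97 and 7.67 FPKM against 5.29, 6.47 and 4.90. SMR1 (AT3G10525), known from growth arrest and endoreduplication, was lower at -0.57, with 11.55, 9.75 and 10.02 against 16.04, 15.55 and 16.3. SIM and SMR1 thus went in opposite directions as deposited, each with separate sets, while after quantile normalization 0 of the 4 were higher and 3 were lower. The median of the 4 was 0.09, which turned to -0.0542 and -0.613 under the 2 scaling alternatives, and the first of these turned the anaphase list to -0.0406. The CDK partner list turned to -0.138 after quantile normalization.

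Markers of dividing tissues were set beside these results, again with 51.9% of all genes tested called higher and 24.1% lower. Of 7 tested cambium markers 6 were higher in WT_V and 0 lower, with a median of 0.61 and summed levels of 79.0 to 80.6 FPKM against 55.5 to 59.2. The cambium regulators CLE41 (AT3G24770), PXY (AT5G61480) and HB8 (AT4G32880) were at 0.37, 0.33 and 0.61. Of 4 tested shoot meristem markers 3 were higher and 1 lower, and their summed levels of all 7 overlapped, at 138.1 to 141.7 against 137.3 to 145.2. STM (AT1G62360), which keeps shoot meristem cells undifferentiated, was lower at -0.21, and KNAT1 (AT4G08150) and CLV1 (AT1G75820) were higher at 0.09 and 0.15. Of 8 endosperm and embryo markers 3 were tested, and FUS3 (AT3G26790) and LEC1 (AT1G21970) were higher while WOX2 (AT5G59340) was lower, with sums of 28.5 to 29.7 against 10.4 to 11.6. Of 8 meiosis markers DMC1 (AT3G22880) and ASY1 (AT1G67370) were tested and both were higher, with sums of 8.53 to 11.96 against 4.22 to 4.67. Of 7 pollen and tapetum markers 2 were tested and both were higher, with sums of 11.99 to 12.24 against 0.953 to 1.26. Both of these, and LEC1, FUS3 and ASY1, had a WT mean under 1 FPKM. They passed the filter only through WT_V, which fixes their direction as deposited. The same held for all 10 seed markers, 1 flower marker and 1 mature stem marker. Among markers under the filter, AGL104 and AGL62 had overlapping sets, and SYN1 was lower in every WT_V library. The part of seed, flower, embryo, cambium or meiotic tissue in the differences of the cyclins, CDKs and KN was not tested.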

How the data were processed

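The assay was RNA sequencing of total RNA from mature stems, with 6 libraries. The authors deposited 1 table of FPKM values, and per the submitters' processing notes Bowtie2 2.2.3, TopHat2 2.0.12 and HTSeq 0.6.1 were used. The sources used here state neither genome build nor annotation, nor the strand setting or how reads matching several genes were treated. Overlapping genes could therefore share reads: 12 of the 43 genes overlap another annotated gene, 11 of them on the opposite strand.

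From these values, genes whose mean reached 1 FPKM entered limma 3.58.1 (intensity trend, R 4.3.3) as log2(FPKM + 1), WT_V minus WT, with Benjamini-Hochberg adjustment over 19144 genes at 0.05. The code was tested on simulated data. Log2 differences on this scale understate the change of low genes, and ratios are of mean FPKM. No test was run over a list. The members and lists were chosen with earlier results of these data known. Values in every library are given for the tested members. From each companion list up to 4 called genes with the greatest absolute difference are named, with those called against most of their list, and from marker lists up to 3 with the highest mean. Of 126 companion symbols 105 matched a locus, and of 65 marker symbols 64.

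Counts were recovered as FPKM times TAIR10.1 exon length times scaling total, and 99.06% to 99.34% of values of single-transcript genes, and 21 of the 43 members, came out whole within 0.02 counts. They serve as description, since a gene with several transcripts may have been given another length. Promoter windows of 250 bases come from the RefSeq TAIR10.1 assembly and annotation, read by locus identifier. Other settings tried were 2 scalings (median of ratios, quantile), pseudocounts of 0.1 and 5, filters of 5 FPKM and none, a fit without the trend, a block for the replicate number and leaving out each library. A mean of 1 FPKM in each set was added after seeing the data. Figures were drawn with matplotlib 3.10.9.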

Additional observations from a re-analysis of the deposited data

How the results depend on the processing

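Of the 34 tested genes, the counts that kept their direction and side of the threshold were 34 with a pseudocount of 5, 33 with a pseudocount of 0.1 and with no filter, 32 with no trend, 25 with scaling by the median of ratios and 17 after quantile normalization. KN, KRP6, KRP2, CYCD3;1, CYCD3;3, CYCB1;2, CDKB2;1 and CDKB2;2 were called higher, and KRP7 lower, under every alternative run. CYCA1;1, CYCB1;1, CYCB1;3 and CDKB1;1 were called higher under every alternative that kept them above its filter.

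With median-of-ratios scaling the members' median was 0.442 and 4 were called lower. Class medians were 0.294 for A-type, 0.71 for B-type and 0.15 for D-type cyclins (1 called lower), 0.606 for CDKs and -0.128 for KRPs, and 7213 of all genes were called lower. With quantile normalization 14 members were called higher and 9 lower (median 0.0611). A-type cyclins had 1 higher and 2 lower (-0.015), B-type 3 and 1 (0.176), D-type 2 lower (0.0563), CDKs 0.272 and KRPs 4 lower (-0.202), with 5711 of all genes higher and 8596 lower. A pseudocount of 0.1 gave medians of 0.746 for all members, 0.556 for A-type and 1.19 for B-type cyclins, and a pseudocount of 5 gave 0.286, 0.277 and 0.374, with 0.433 for CDKs. A minimum mean of 5 FPKM left 12 members called higher (median 0.423), with 2 A-type, 1 B-type (1.14) and 3 CDKs. No filter gave medians of 0.407, 0.734 and 0.479 for A-, B- and D-type cyclins and 7 D-type genes called higher. A mean of 1 FPKM in each set gave 0.231 for D-type cyclins. With no filter, no trend or a pseudocount of 0.1, 1 member, a KRP, was called lower. Leaving out 1 library gave 1 to 2 members called lower, all KRPs, against 2.

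Signs turned after quantile normalization for CYCA2;2 (-0.493), CYCA2;3 (-0.251), CYCA3;1 (-0.143), CYCA3;2 (-0.015), CYCB1;4 (-0.281), CYCB2;2 (-0.0989), CYCB2;4 (-0.0742), CYCD2;1 (-0.102), KRP3 (-0.599) and KRP4 (-0.202), and after median-of-ratios scaling for CYCD2;1 (-0.0664), CDKA;1 (-0.0581) and KRP4 (-0.128). Without 1 library CYCD1;1 ranged from -0.0378 to 0.0205 and KRP1 from -0.038 to 0.0344. Companion medians turned to -0.0253 (licensing), -0.0226 (S phase), -0.0439 (spindle), -0.222 (anaphase-promoting complex), -0.138 (CDK partners) and -0.613 (SIAMESE-related) after quantile normalization, to -0.0406 and -0.0542 for the anaphase and SIAMESE lists after median-of-ratios scaling, and to -0.0635 for the latter at a minimum mean of 5 FPKM. The cause of these changes was not tested.

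Same-numbered libraries did not deviate together (correlations of -0.0157, -0.0156 and 0.0141), and libraries of unequal number gave -0.0118 to 0.0266. Whether a number marks a shared plant or day is not given. The correlations cannot decide it, since a shared plant or day need not leave a common deviation. A replicate block left 26 members called higher and 2 lower and 9868 of all genes higher, and changed no member's call. Groups of 3 libraries were not tested for outlying samples, and at 0.0196 to 0.0248 FPKM per count in 1 kb, levels of the rarest members rest on few counts.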
